A study of Saccharomyces cerevisiae with 30 samples.

Results

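The question addressed here was whether loss of Ime4p catalytic activity changed the share of each mRNA found on polysomes in meiotic yeast cells, apart from any change in the amount of that mRNA. The members were the 12 RNA-seq libraries of wild-type (WT) and *ime4-cat* cells, polysomal and total, out of 18 RNA-seq libraries and 30 samples in the series. The measure was the loading change on the log2 scale, that is polysomal minus total RNA in *ime4-cat* cells, minus the same difference in WT cells. Each of the 4 groups held 3 libraries, described by the study as biological replicates.

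The WT strain (GBy222) was *IME4*/*IME4* and the mutant strain (GBy225) was *ime4-cat*/*ime4-cat*, whose protein carries substitutions in the catalytic site of the methyltransferase. Both were diploids of SK288C, an S288C background with SK1 alleles of *TAO3* and *MKT1*, and both carried *rme1-S288C* and the *his3*, *leu2*, *lys2* and *ura3* markers. Cells had been in SPO media, which starves them of nitrogen and gives acetate as carbon source, for 5 h. Polysomal RNA came from pooled sucrose-gradient fractions of lysates made with cycloheximide, which holds ribosomes on mRNA. Total RNA came from the same kind of lysate before the gradient, and both were selected for poly(A) RNA. The series names these libraries in conflicting ways. The names of the deposited tables carry a strain number and a fraction letter, and 6 of the 12 libraries have titles that disagree with them. The 3 libraries called WT total here are titled *rme1-10* polysome, and the 3 called *ime4-cat* total are titled WT input. The 6 polysomal libraries have titles that agree. Groups here follow the strain number and fraction letter, and the contrast with groups by title, in which many genes pass the threshold, is given among the processing alternatives.

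Ime4p is the catalytic subunit of the yeast N6-methyladenosine (m6A) writer, with Mum2p, Slz1p, Vir1p and Kar4p among its partners, and Pho92p is the YTH-domain reader. Methylation occurs during meiosis, when starvation induces *IME1*, the master regulator of entry, and Ime1p in turn activates *IME2* and the early meiotic genes. Rme1p represses *IME1*. An mRNA carrying several ribosomes sediments in polysomes, so its ratio of polysomal to total RNA is a measure of ribosome association and not of protein output.

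The *RME1* mRNA has a match to the m6A consensus in its 3′ UTR, shown because this mRNA is the one the comparison was built around. A search of the 200 bases after the stop codon for ANGGACNNT or ANAGACNNT, on the transcript strand only, found 1 match. In the R64 (sacCer3) reference it lies on chromosome VII, minus strand, within 582851 to 582871, downstream of the coding sequence at 582990 to 583892. The consensus A is base 129 after the stop codon. The capitals mark the 9 letters of the match.
RME1: gcaactATGGACACTtgctat
Windows of the same length after 488 of 6008 coding sequences, or 8.12%, held at least 1 such match, so the letters alone do not single out *RME1*.

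Library quality set the limits of the comparison. Counts on genes ranged from 586141 to 2296555, and the lowest totals were in *ime4-cat* polysomal replicates 2 and 3. Entries tallied as not aligned uniquely made up 66.8% to 94.3% of each table. Levels below are counts per gene scaled to library size with TMM factors (CPM). On principal components of log2 CPM, the first component (40.3% of variance) followed strain and the second (23.5%) followed fraction. The exception was *ime4-cat* total replicate 3. It lay at -2.25 on the first component, against 12.61 and 14.14 for the other *ime4-cat* total libraries and -16.42 to -14.13 for WT total RNA. Its chi-square per degree of freedom against the other *ime4-cat* total libraries was 15.6 or more, and every other pair of replicates gave 1.58 to 8.36. No pair agreed within sampling noise. Results that rest on this library are given below with and without it.

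**Figure D1:**
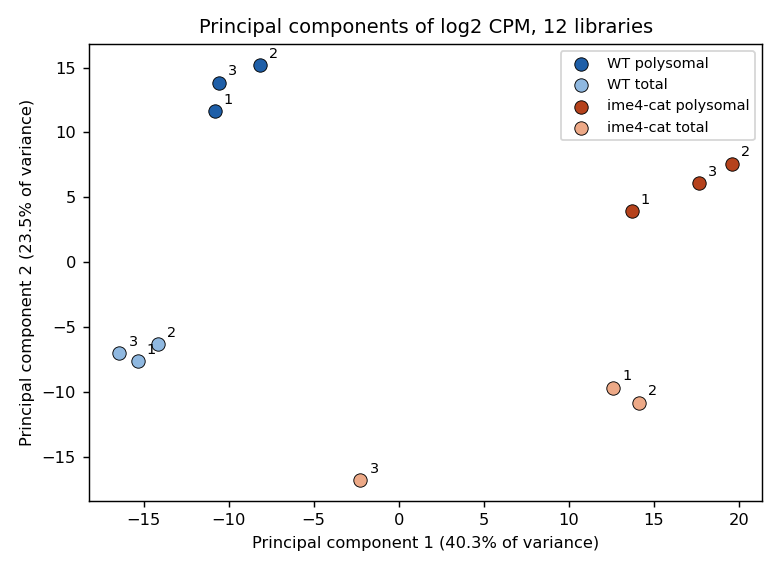
First and second principal components of log2 CPM for the 12 libraries, with the share of variance on each axis, points coloured by strain and fraction and numbered by replicate. The *ime4-cat* libraries lie at 12.61 or higher on the first component except total replicate 3, at -2.25.

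Levels of marker genes moved with that library. The summed level of 9 markers of meiotic cells was 4345 to 5764 CPM in the WT libraries. It was 1484 to 1785 in 5 of the 6 libraries of *ime4-cat* cells and 3796 in *ime4-cat* total replicate 3, between the strains. All 9 markers, *IME1*, *IME2*, *HOP1*, *RED1*, *ZIP1*, *REC8*, *DMC1*, *SPO11* and *MEK1*, were higher in it than in the other *ime4-cat* total libraries. The 5 markers of cells past meiotic prophase summed to 50.3 to 108 in all 12 libraries, and 8 markers of haploid or mating cells to 116 to 165. The 4 markers of growing cells summed to 78.2 to 130, and to 54.2 in *ime4-cat* total replicate 3. In bulk RNA, fewer cells of a type and less RNA per cell cannot be told apart. *IME4* itself is no check of the strain labels, because the *ime4-cat* mRNA differs only by point mutations.

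RNAs that are not translated bear on the fraction letters, and they did not all go one way. Both fractions had been selected for poly(A) RNA, so the level of these RNAs also depends on what passed selection in each library. Their summed level was 13540 CPM in WT total replicate 1, against 3371 and 4731 in replicates 2 and 3. The part of selection in these levels was not tested, which limits the check. Of 41 tested, 18 were lower in polysomal than in total RNA in both strains, 10 were higher in both and 13 differed in sign between strains. Median loading over all genes tested was 0.00 in WT and -0.01 in *ime4-cat* cells. The share of all genes lower in both strains is not given here. These counts alone therefore do not set untranslated RNAs apart from other genes. The small nucleolar RNA *snR161* was among those higher, with a polysomal minus total difference of 1.60 in WT and 0.99 in *ime4-cat* cells on the log2 scale. The RNAs described next were chosen after their values were seen. The share of all genes whose fractions did not overlap is not given here. *LSR1*, the U2 spliceosomal RNA, was at 256 to 371 CPM in WT polysomal and 942 to 3063 in WT total libraries. In *ime4-cat* cells it was at 189.7 to 489 and 845 to 2171, so the fractions did not overlap in either strain. *RPR1*, the RNA of RNase P, was at 10.7 to 29.1 and 44.7 to 239 in WT cells, and at 26.3 to 31.2 and 44.2 to 163 in *ime4-cat* cells, again without overlap. *SCR1*, the RNA of the signal recognition particle, separated the fractions in WT cells (421 to 750 against 1295 to 5493). It overlapped in *ime4-cat* cells, where *ime4-cat* polysomal replicate 3 had 1391 and *ime4-cat* total replicate 3 had 849. The 28 mitochondrially encoded genes had 0 counts in all 12 libraries and gave no check.

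Polysome loading itself differed among mRNAs in both strains. With edgeR's quasi-likelihood test and Benjamini-Hochberg adjustment over 5827 genes, polysomal RNA of WT cells exceeded total RNA for 177 genes and was below it for 159 (5.77% of genes tested). The counts were 74 and 115 in *ime4-cat* cells (3.24%). Both strains called 94 genes, which were 28% of the calls in WT and 49.7% of those in *ime4-cat*, and all 94 had the same direction. *HAC1*, chosen after its values were seen, encodes the transcription factor of the unfolded protein response and is known for an unspliced mRNA that is poorly translated. Its polysomal minus total difference was -2.25 in WT cells and -1.79 in *ime4-cat* cells on the log2 scale, with adjusted p of 1.86e-05 and 6.77e-04. Over the 3503 genes with a mean of at least 50 CPM, loading in the 2 strains had a Pearson correlation across genes of 0.740, which describes genes and not independent replicates.

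The loading change between strains passed the threshold for no gene. At an adjusted p under 0.05, the loading of 0 genes (0%) was higher and that of 0 (0%) lower in *ime4-cat* cells, and the smallest adjusted p was 0.999 (edgeR). At an unadjusted p under 0.05 there were 57 higher (0.978%) and 100 lower (1.72%), or 2.69% of genes tested. With no change in any gene, that threshold would give a share of about 0.05, so 2.69% is no excess. Why the share was lower was not tested. DESeq2's Wald test and limma-trend also called 0 genes, with 90 and 155 at an unadjusted p under 0.05. The median loading change over all genes was -0.01, which scaling to the other genes fixes near 0. A shift of all mRNAs onto or off polysomes would therefore not be seen in these values.

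The precision of that result was measured gene by gene. Among the 3503 genes with a mean of at least 50 CPM, the 5th to 95th percentile of the loading change ran from -0.47 to 0.42, and 3491 genes (99.7%) lay within 1 log2 unit of 0. The 95% interval lay wholly within 1 log2 unit for 2828 of them (80.7%). The median margin on each side of the interval was 0.58 log2 units for these genes and 0.68 for all genes. It was 1.31 for genes under 20 CPM and 0.46 for genes at 500 or more. These margins are for single genes without adjustment, so they are not the size of change that the adjusted test could call. The changes of 157 genes exceeded their own margins, at an unadjusted p under 0.05 (edgeR), and none passed the adjusted threshold. The parts of depth and of the spread between libraries in these margins were not separated. Without *ime4-cat* total replicate 3, the test again called 0 genes, with 299 (5.13%) at an unadjusted p under 0.05. The common biological coefficient of variation was then 0.127 in place of 0.171, and the median margin for genes at 50 CPM or more was 0.52.

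The parts of the loading change showed larger differences than the change itself. Polysomal RNA differed between strains for 581 genes (9.97%) and total RNA for 625 (10.7%), at the same adjusted threshold. Of the polysomal calls 260 (4.46% of genes tested) were higher and 321 (5.51%) lower in *ime4-cat* cells, and of the total calls 314 (5.39%) were higher and 311 (5.34%) lower. Both calls were made for 358 genes, 61.6% of the polysomal and 57.3% of the total calls, and all 358 had the same direction. Across the 3503 genes, the polysomal and total differences had a Pearson correlation of 0.827. Their standard deviations over genes were 0.49 and 0.43, and that of the loading change was 0.28. With *ime4-cat* total replicate 3 left out the calls were 1009 polysomal, 1241 total and 699 shared, all of the same direction.

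**Figure D2:**
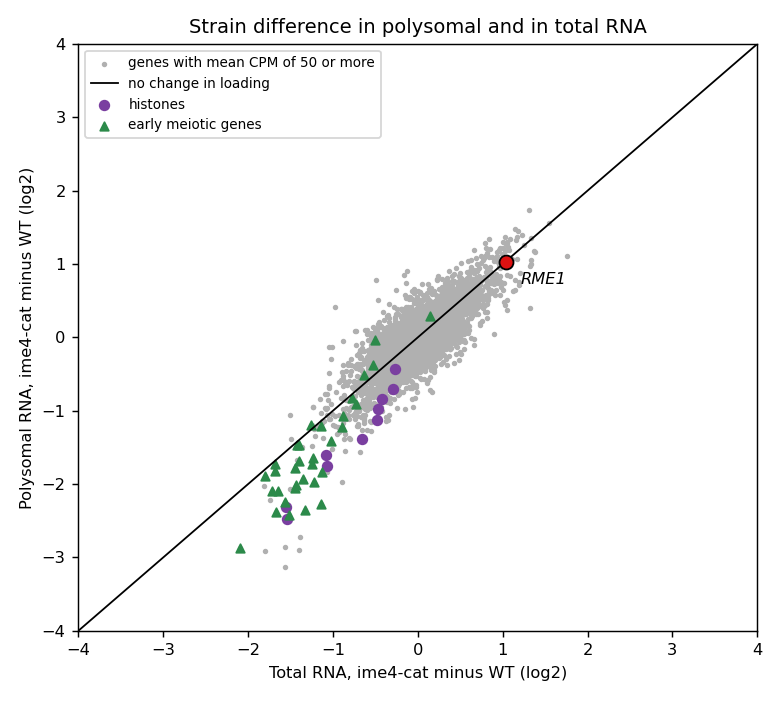
Strain difference (*ime4-cat* minus WT, log2) in polysomal RNA against that in total RNA for the 3503 genes with a mean of at least 50 CPM, with histones, early meiotic genes of any level and *RME1* marked and a line where loading does not change. *RME1* lies on the line at 1.04 and 1.03, and all 10 histone genes lie below it.

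*RME1* (YGR044C), the repressor of *IME1*, was higher in *ime4-cat* cells in both fractions by similar amounts. Its level in WT polysomal libraries was 73.7, 81.6 and 89.5 CPM, and 107, 108 and 88.0 in WT total libraries. In *ime4-cat* cells it was 165, 173 and 161 in polysomal and 175, 207 and 239 in total libraries. All 6 *ime4-cat* libraries were above all 6 WT libraries, including total replicate 3, which had the highest value. The strain difference was 1.03 in polysomal RNA (adjusted p = 0.0014) and 1.04 in total RNA (adjusted p = 0.0012), both by edgeR. Loading was -0.30 in WT cells and -0.31 in *ime4-cat* cells. The loading change was -0.01 (SE 0.24, 95% interval -0.51 to 0.49, adjusted p = 0.999 by edgeR). As a fold, the ratio of polysomal to total RNA in *ime4-cat* cells divided by that in WT cells was 0.992, with an interval of 0.702 to 1.40. The raw counts behind it were 53 to 117 in WT polysomal and 92 to 155 in *ime4-cat* polysomal libraries. Without *ime4-cat* total replicate 3 the loading change was 0.11 (SE 0.22), and leaving out each library in turn gave -0.12 to 0.11.

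**Figure D3:**
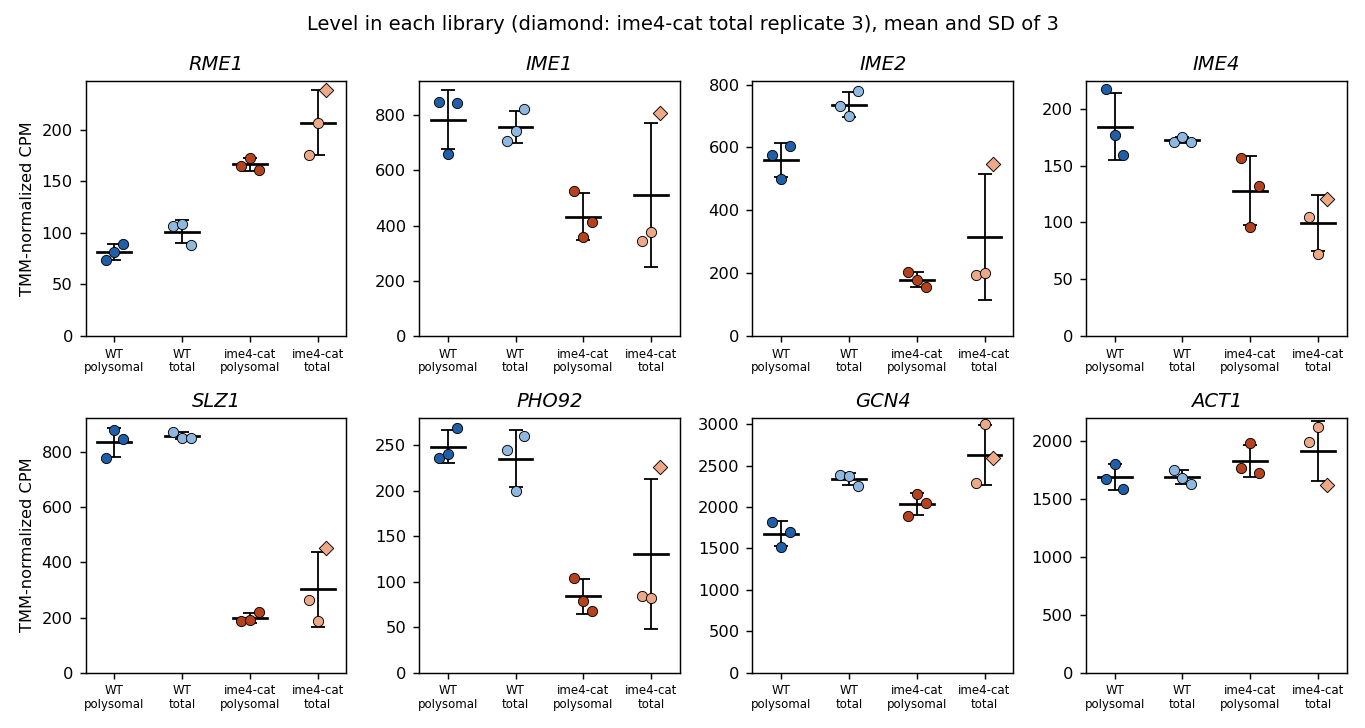
Level of 8 genes in each of the 12 libraries as TMM-normalized CPM on linear axes from 0, with the mean and SD of 3 libraries per group and a diamond for *ime4-cat* total replicate 3. *RME1* is at 73.7 to 108 in WT cells and 161 to 239 in *ime4-cat* cells in both fractions, while the diamond stands above its group for *IME1*, *IME2*, *SLZ1* and *PHO92*.

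*IME1* and *IME2*, downstream of Rme1p, were lower in polysomal RNA of *ime4-cat* cells, with a loading change whose sign depended on 1 library. *IME1* was at 848, 659 and 844 CPM in WT polysomal and 707, 743 and 821 in WT total libraries. In *ime4-cat* cells it was at 524, 359 and 413 in polysomal and 342, 376 and 810 in total libraries. The last value overlapped the WT total libraries and the others did not. The strain difference of *IME1* was -0.85 in polysomal RNA (adjusted p = 0.042, edgeR) and -0.58 in total RNA (adjusted p = 0.15). Its loading change was -0.28 (SE 0.35) with all libraries and 0.23 (SE 0.22) without *ime4-cat* total replicate 3. *IME2*, the kinase that drives meiotic progression, was at 577, 500 and 605 in WT polysomal and 733, 699 and 778 in WT total libraries. It was at 205, 177 and 156 in *ime4-cat* polysomal and 195, 201 and 548 in *ime4-cat* total libraries. Here too the third total library stood between the strains. The strain difference of *IME2* was -1.64 in polysomal and -1.23 in total RNA (adjusted p = 0.0026 and 0.011, edgeR). Its loading change was -0.41 (SE 0.41) and 0.26 (SE 0.20) without that library. *NDT80*, the activator of the middle genes, was sparse, at 34.3 CPM on average, with a loading change of -0.47 (SE 0.43) and -0.44 without that library.

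The genes of the m6A machinery gave no loading change past the threshold. *IME4* was at 217, 177 and 159 CPM in WT polysomal and 171, 176 and 171 in WT total libraries. It was at 157, 95.9 and 132 in *ime4-cat* polysomal and 105, 72.1 and 120 in *ime4-cat* total libraries. All *ime4-cat* libraries were below all WT libraries. The total RNA difference was -0.80 (adjusted p = 0.018, edgeR), the polysomal difference was -0.51 (adjusted p = 0.14), and the loading change was 0.29 (SE 0.29, interval -0.32 to 0.90). It was 0.45 without *ime4-cat* total replicate 3 and 0.11 to 0.45 over leaving out each library. *IME4* overlaps the antisense transcript *RME2*, and strand-aware counting is not stated, so its reads are uncertain.

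*SLZ1*, a meiotic subunit of the writer complex, was at 778, 882 and 848 in WT polysomal and 875, 853 and 852 in WT total libraries. It was at 186, 192 and 219 in *ime4-cat* polysomal and 264, 188 and 454 in *ime4-cat* total libraries. Strains did not overlap in either fraction, and the strain difference was -2.07 in polysomal and -1.51 in total RNA (adjusted p = 5.85e-05 and 7.38e-04, edgeR). Its loading change was -0.56 (SE 0.31), and -0.15 without *ime4-cat* total replicate 3. *PHO92*, the reader, was at 83.9 and 81.6 in *ime4-cat* total replicates 1 and 2 and 226 in replicate 3, inside the WT total range of 200.1 to 260. Its loading change was -0.69 (SE 0.43), the most negative of the 7 genes in this list, and -0.04 without that library. *KAR4* and *MUM2* gave -0.42 and -0.15, and -0.01 and 0.09 without it. *VIR1* gave 0.05. *DYN2*, the dynein light chain found with the complex, gave -0.32. The list median was -0.32 with all libraries and -0.01 without *ime4-cat* total replicate 3, beside a median of -0.01 over all genes.

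Among the genes chosen whatever their values, *ACT1*, *PGK1* and *GCN4* lie outside the meiotic pathway and gave small values. Some other genes outside it gave larger ones, such as *BMS1* at 1.39 and *NHP6A* at -0.78, described below. *ACT1*, actin, had a loading change of -0.07 (SE 0.19) and *PGK1*, a glycolytic enzyme, 0.01 (SE 0.25). *GCN4*, the activator of amino acid synthesis whose translation is held back by upstream open reading frames (uORFs), had polysomal levels below total levels. Its polysomal levels were 1823, 1520 and 1696 in WT cells and 1896, 2156 and 2055 in *ime4-cat* cells. Its total levels were 2383, 2380 and 2259 in WT cells and 2293, 3006 and 2591 in *ime4-cat* cells. Polysomal values were below total values in each strain, with loading of -0.48 in WT cells (adjusted p = 0.045, edgeR) and -0.37 in *ime4-cat* cells (adjusted p = 0.13). The loading change was 0.11 (SE 0.19), and 0.018 to 0.22 over leaving out each library. The 18 tested mRNAs with known uORFs had a median of 0.11, with 11 above and 7 below 0, and the same median without *ime4-cat* total replicate 3. None passed the threshold, and *TIF4631*, encoding the initiation factor eIF4G1, reached 0.76 at an unadjusted p of 0.047. In the same list *LEU4*, which starts leucine synthesis, gave 0.17, *CPA1*, of arginine synthesis, 0.11 and *YAP1*, of the oxidative stress response, -0.07.

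The early meiotic genes fell in *ime4-cat* cells in both fractions. Of 33 tested, 26 were lower in polysomal RNA and 26 in total RNA, and none was higher, beside 5.51% and 5.34% of all genes called lower. Their median strain difference was -1.73 in polysomal and -1.33 in total RNA, and -1.88 in total RNA without *ime4-cat* total replicate 3. *DMC1*, the meiotic recombinase, was at 1364, 1466 and 1419 in WT polysomal and 1563, 1399 and 1458 in WT total libraries. It was at 402, 440 and 442 in *ime4-cat* polysomal and 550, 476 and 842 in *ime4-cat* total libraries, without overlap between strains. The loading change had a median of -0.34, with 28 of 33 genes below 0. At an unadjusted p under 0.05, 1 gene was lower, beside 1.72% of all genes. With *ime4-cat* total replicate 3 left out the median was 0.18, with 11 below and 22 above 0. The single gene was *REC102*, a partner of the break-forming enzyme Spo11p, at -1.14 (unadjusted p = 0.049) and -0.44 without that library. *DMC1* gave -0.49 and -0.21, *REC8*, the meiotic cohesin subunit, -0.45 and 0.33, and *HOP1*, of the chromosome axis, -0.06 and 0.28. The 22 *NDT80* and middle sporulation genes had a median of -0.25, and 0.00 without it. In that list *SPO74*, of the meiotic spindle pole, gave -1.51 at an unadjusted p of 0.013, at 3.8 to 8.7 CPM in *ime4-cat* polysomal libraries.

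Histone genes had the most negative median of the 22 lists, with every member below 0. All 10 tested genes had a loading change below 0, and the median was -0.58. Of these, 4 were lower at an unadjusted p under 0.05, beside 1.72% of all genes, and none passed the adjusted threshold. Over all genes tested 3016 were below 0 and 2811 above it. In *ime4-cat* cells 9 of 10 histone mRNAs were lower in polysomal and 5 of 10 in total RNA, beside 5.51% and 5.34% of all genes. Median loading was 0.62 in WT cells and 0.03 in *ime4-cat* cells. *HHF1*, encoding histone H4, was at 1228, 1726 and 1426 CPM in WT polysomal and 889, 855 and 815 in WT total libraries. It was at 395, 525 and 385 in *ime4-cat* polysomal and 347, 311 and 559 in *ime4-cat* total libraries. The fractions were apart in WT cells and overlapped in *ime4-cat* cells, where total replicate 3 was the highest of all 6. The loading change of *HHF1* was -0.68 (SE 0.28). *HTB2*, encoding histone H2B, had the most negative value, -0.94 (SE 0.41), and *HHO1*, the linker histone, the least, -0.17 (SE 0.19). *HTA1*, *HTB1* and *HHT2* gave -0.41, -0.52 and -0.42. The median was -0.36 without *ime4-cat* total replicate 3, all 10 were still below 0, and none was at an unadjusted p under 0.05. Without that library other sets had similar medians. It was -0.34 for proteins of the large ribosomal subunit and -0.31 for genes of 300 to under 600 coding bases at 50 CPM or more. Pairs of histone genes share much of their coding sequence, so the split between copies is uncertain.

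Some ribosomal protein mRNAs were higher in *ime4-cat* cells, and the loading change was below 0 for most of them without passing the threshold. Of 81 genes of the large subunit, 17 were higher in polysomal RNA and 35 in total RNA, and none was lower. Of 56 genes of the small subunit 14 and 26 were higher and none was lower, beside 4.46% and 5.39% of all genes called higher. The median loading change was -0.19 for the large subunit (53 below and 28 above 0) and -0.08 for the small subunit (38 and 18). In each subunit 1 gene was lower at an unadjusted p under 0.05, beside 1.72% of all genes. These were *RPL29* at -0.92 (SE 0.38) and *RPS4A* at -0.67 (SE 0.31). Without *ime4-cat* total replicate 3 the medians were -0.34 and -0.28, with 70 of 81 and 48 of 56 genes below 0. At an unadjusted p under 0.05 there were then 11 genes of the large and 2 of the small subunit lower, beside 166 of all 5827 genes. The abundant *RPL10*, *RPL28* and *RPP0* gave -0.15, -0.08 and 0.09, and *RPS0A* and *RPS25A* gave 0.09 and -0.31. Many of these genes have near-identical copies, and their counts are uncertain. The 71 genes of the mitochondrial ribosome had a median of -0.08, and none of them was called in either fraction. At an unadjusted p under 0.05, 4 of the 71 were lower, beside 1.72% of all genes.

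In the translation machinery and metabolism lists no gene passed the threshold for loading change. Without *ime4-cat* total replicate 3 the medians moved most for glycolysis, to -0.17 with 15 of 20 genes below 0, for elongation and release factors, to -0.12, and for repressors and decay factors, to 0.09. The 28 initiation factors had a median of -0.10, with *GCD2*, a subunit of eIF2B, at 0.65 and *SUI1*, encoding eIF1, at -0.51. *PAB1*, the poly(A)-binding protein, gave 0.01. The 16 elongation and release factors had a median of -0.00 and the 23 repressors and decay factors -0.03. The 53 genes of amino acid synthesis had a median of 0.07. Of these, 23 were higher in polysomal RNA and 25 in total RNA of *ime4-cat* cells, beside 4.46% and 5.39% of all genes called higher. The 20 genes of glycolysis and gluconeogenesis had 8 higher in each fraction, beside the same shares of all genes, and a median loading change of 0.01. The 31 proteasome genes had 21 lower in polysomal and 13 lower in total RNA, beside 5.51% and 5.34% of all genes called lower. Their median loading change was -0.15. The 34 genes of the respiratory chain and ATP synthase had a median of -0.14. Of these, *ATP15* at -0.60 and *CYC7* at -0.74 were lower at an unadjusted p under 0.05, beside 1.72% of all genes. The 24 genes of the glyoxylate and TCA cycle gave -0.04, the 34 heat shock and stress genes -0.01 and the 25 genes of the secretory pathway -0.11. The 11 genes of the *RME1* and *IME1* circuit had a median of -0.01, and 0.23 without *ime4-cat* total replicate 3. Of the lists that mark other cell types, the 17 mating genes gave 0.03 and the 11 genes of the G1 cyclin list for vegetative growth gave 0.25, and 0.03 without *ime4-cat* total replicate 3. The 28 genes of premeiotic DNA replication had a median of -0.06, in which *RFA3*, of the single-strand binding complex, gave -0.53 and *ORC1*, of the origin recognition complex, 0.51.

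**Figure D4:**
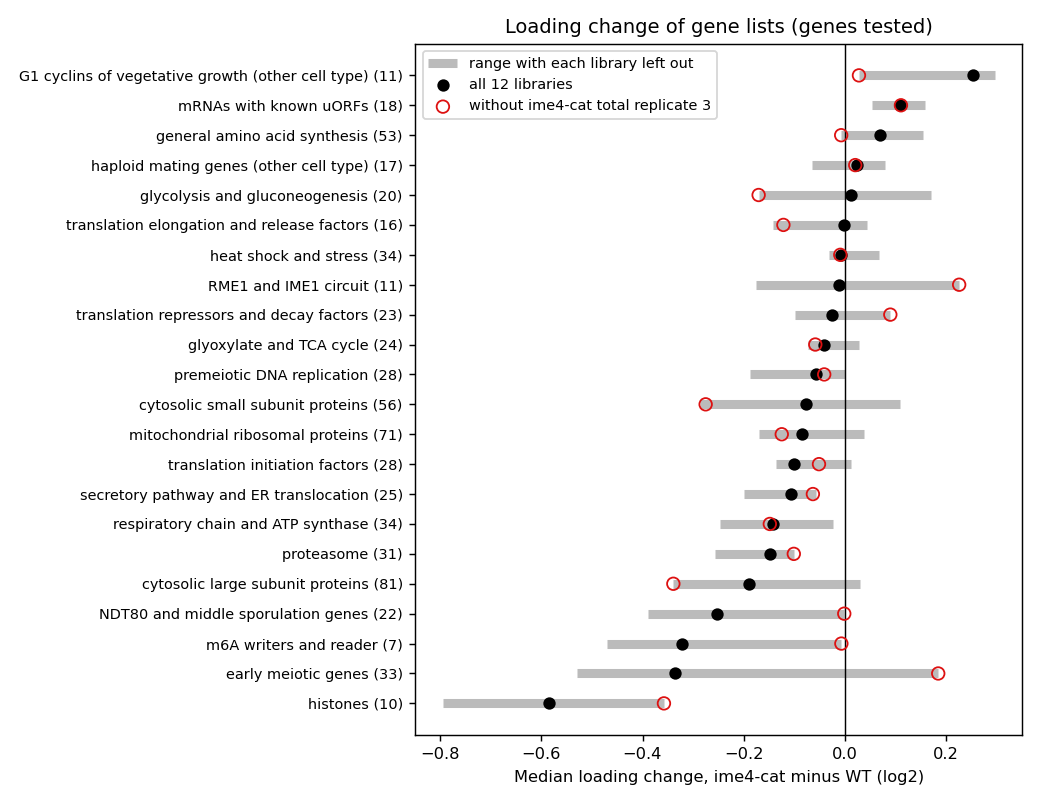
Median loading change (*ime4-cat* minus WT, log2) of 22 gene lists with the number of genes tested, for all 12 libraries (filled points) and without *ime4-cat* total replicate 3 (open circles), and the range over leaving out each library (grey bars). Early meiotic genes move from -0.34 to 0.18 without that library. Histones stay below 0 at -0.36, and proteins of the large ribosomal subunit move from -0.19 to -0.34.

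The genes at 50 or more CPM with the smallest unadjusted p did not pass the threshold either. The 12 genes named by unadjusted p among those above 0 were *MDJ1*, *SAS3*, *IOC2*, *CBK1*, *SLY1*, *UBP3*, *GGA1*, *BMS1*, *RLM1*, *GCD2*, *CDC14* and *DUN1*, with loading changes of 0.58 to 1.39. *MDJ1*, a chaperone of the mitochondrial matrix, was at 269, 212 and 249 in WT polysomal and 282, 254 and 292 in WT total libraries. It was at 288, 230 and 267 in *ime4-cat* polysomal and 235, 146 and 156 in *ime4-cat* total libraries. The fractions overlapped in both strains, and the loading change was 0.72 (SE 0.25, unadjusted p = 0.011). *IOC2*, of a chromatin remodelling complex, was higher in polysomal than in total libraries of both strains without overlap, at 94.1 to 110 against 36.1 to 59.5 in *ime4-cat* cells. Its loading change was 0.73 (SE 0.27). *CBK1*, a kinase of cell separation, gave 0.71 (SE 0.26), with 33.9 to 45.9 in WT polysomal and 56.5 to 80.9 in *ime4-cat* polysomal libraries. *BMS1*, of ribosome assembly, had the highest value, 1.39 (SE 0.54). It rested in part on *ime4-cat* total replicate 3, at 9.3 against 62.2 and 53.6 in the other *ime4-cat* total libraries, and was 0.92 without it.

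The 12 named below 0 by the same rule were *NHP6B*, *CSS3*, *CYC7*, YBR184W, YKR005C, YDR015C, *NHP6A*, *HMRA1*, *FPY1*, YOR102W, YLL047W and *POL12*, with loading changes of -0.70 to -1.56. YDR015C, YOR102W and YLL047W matched no RefSeq gene. Strand-aware counting is not stated, so it is uncertain which transcripts their reads came from. *NHP6B*, an HMG-box chromatin protein, was at 271, 366 and 269 in WT polysomal and 217, 193 and 195 in WT total libraries. It was at 101, 154 and 120 in *ime4-cat* polysomal and 139, 133 and 139 in *ime4-cat* total libraries. The fractions were apart in WT cells and overlapped in *ime4-cat* cells. Its loading change was -0.73 (SE 0.24, unadjusted p = 0.0079), and that of its near-identical paralog *NHP6A* was -0.78 (SE 0.29), so the split between them is uncertain. *CYC7*, an isoform of cytochrome c, was at 79.1, 137 and 109 in WT polysomal and 44.9, 49.8 and 56.5 in WT total libraries. In *ime4-cat* cells it was at 82.1, 97.8 and 95.4, and 71.5, 71.4 and 75.4. Polysomal values were above total values in both strains, with loading of 1.07 and 0.32. *POL12*, a subunit of DNA polymerase alpha, gave -0.76 (SE 0.30). *HMRA1*, at the silent mating locus, has a copy at MATa and is uncertain.

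Some of these values were nearer 0 without *ime4-cat* total replicate 3. YLL047W was at 66.1, 46.5 and 247 in *ime4-cat* total libraries, and its loading change was -1.56 with all libraries and -0.49 without the third. YBR184W gave -1.50 and -0.82, and YKR005C -1.30 and -0.61. All 3 were lower in *ime4-cat* cells in both fractions, by -2.86 to -3.13 in polysomal RNA. *NHP6B* and *CSS3* moved little, to -0.72 and -0.87.

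The loading change also varied with coding length. Among the 3397 genes with a coding length and a mean of at least 50 CPM, the median loading change was -0.21 for 87 genes under 300 bases and -0.23 for 394 genes of 300 to under 600 bases. It was -0.11 from 600 to under 1000, 0.00 from 1000 to under 1500, 0.08 from 1500 to under 2500 and 0.08 at 2500 bases or more. The Pearson correlation with log2 coding length across genes was 0.368, a description over genes that share the same 12 libraries. Loading went with length at -0.221 in WT cells and 0.044 in *ime4-cat* cells. The 56 genes with an unadjusted p under 0.05 and a higher value had a median coding length of 2019 bases, the 89 with a lower value 693 bases, and all genes 1248 bases. Histone, ribosomal protein and *NHP6* mRNAs are among the short ones. Without *ime4-cat* total replicate 3 the medians of the shortest and longest classes were -0.34 and 0.19. Leaving out each library gave -0.36 to -0.04 for the shortest class and -0.04 to 0.19 for the longest. Both were -0.04 without *ime4-cat* total replicate 1, so the difference between these classes rested on that library. This library also had 3699 CPM of *SCR1* and the highest total count. WT total replicate 1 had more *SCR1*, at 5493 CPM, and without it the medians of the shortest and longest classes were -0.27 and 0.13. The part of depth and of untranslated RNA in the trend was not tested.

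**Figure D5:**
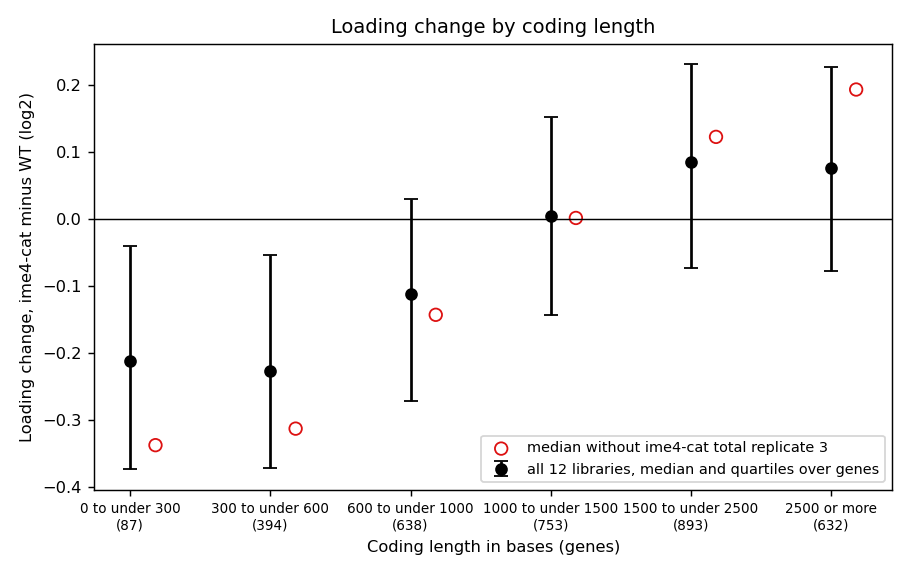
Loading change (*ime4-cat* minus WT, log2) by coding length in bases for 3397 genes with a mean of at least 50 CPM, as the median and quartiles over genes with all 12 libraries and as the median without *ime4-cat* total replicate 3. The median runs from -0.21 in the shortest class to 0.08 in the longest.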

How the data were processed

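RNA was measured in 12 libraries, 3 of each strain and fraction, after poly(A) selection. The deposited files hold raw counts per gene, made by the authors after alignment with TopHat2 to sacCer3 per the submitters' processing notes; the counting program and its strand setting are not given in the sources used here. The methods name a NEBNext kit and the labels Illumina TruSeq. Rows that name no gene were left out of library sizes and tests; those tallied as not aligned uniquely made up 66.8% to 94.3% of a table and those with no feature 3.22% to 18.5%. Of 7126 listed genes, 6048 matched a RefSeq symbol by systematic name (R64).

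Strain and fraction were read from the names of the tables, with the study's strain list, because titles of 12 of the 18 RNA-seq libraries disagree with them. Counts were fitted in edgeR 4.0.16 (R 4.3.3) with TMM factors, filterByExpr by group (5827 genes), glmQLFit and glmQLFTest, as 4 groups without a block. The interaction was tested with Benjamini-Hochberg adjustment over all 5827 genes and a threshold of 0.05. SEs are the size of the log2 change over the square root of F. CPM values are counts scaled to library size with TMM factors. DESeq2 1.42.0 and limma 3.58.1 gave alternatives. The script was tested on simulated data without an outlying library or a replicate batch, which does not show how the test behaves in these libraries. Depth and the spread between libraries both enter the precision and were not separated. The p-values measure the spread between 3 libraries a group, moderated across genes by the fit.

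Named genes were 12 chosen whatever their values, the 12 largest rises and falls past the threshold with a mean of at least 50 CPM (filled by unadjusted p, since none passed), and members of the lists past the threshold or with the highest level. List members at an unadjusted p under 0.05 or at the end of a list, *HAC1* and YNL208W were named after their values were seen. Not every gene that the rule names is reported here. The members and lists were chosen with earlier results of these data known.

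Replicate numbers were checked as pairs. Polysomal and total libraries of 1 number and strain had correlations of deviations from the group means of 0.08, 0.02 and 0.19 in WT cells and 0.03, 0.16 and -0.00 in *ime4-cat* cells, not all over 0.1. Libraries of 1 number and fraction in different strains had 0.50, 0.47 and 0.084 in polysomal and 0.41, 0.29 and 0.21 in total RNA, which led to the fraction block. The rule, over 0.1 for every polysomal and total pair of 1 strain, was not met, so numbers were not taken as pairs. The planned permutation test of *RME1* by replicate number was therefore not run.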

Additional observations from a re-analysis of the deposited data

How the results depend on the processing

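With groups by strain number and fraction letter, 0 genes passed the threshold under every alternative but 1. These alternatives were DESeq2 size factors, no scaling factors, TMM without ribosomal protein genes, DESeq2's Wald test, limma-trend, no filter, at least 10 counts in every library, 2 replicate blocks, all 18 libraries, thresholds of 0.01 and 0.1, each library left out, and, chosen after seeing the data, a fraction block, library weights and a mean of 50 CPM. At an unadjusted p under 0.05 they gave 74 to 329 genes. The replicate block on the number gave 192 genes the culture replicate block 163 and the fraction replicate block 279, against 157 without a block. None of these blocks changed a call with all 12 libraries. The exception, chosen after seeing the data, left out *ime4-cat* total replicate 3 and added the fraction replicate block. It had 520 genes at an unadjusted p under 0.05 and called 1 gene lower, YNL208W, at -0.67 (adjusted p = 0.0068, edgeR), against -0.49 with all libraries. Library weights gave *ime4-cat* total replicate 3 a weight of 0.152 and the others 0.454 to 2.66.

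Groups by title changed the result. They take the total libraries of GBy557 (*rme1-10*) as *ime4-cat* input and those of GBy225 as WT input, and gave 567 genes higher and 610 lower. *RME1* was then 1.54 (adjusted p = 2.41e-04, edgeR). Signs turned for *IME4* (-1.20), *ACT1* (0.23), *MDJ1* (-0.59), *SAS3* (-0.49), *IOC2* (-1.19), *SLY1* (-0.11), *UBP3* (-0.25), *BMS1* (-0.23), *GCD2* (-0.14), *CDC14* (-0.82), *CYC7* (0.045) and *HMRA1* (0.47). List medians by title were -1.64 for the m6A machinery, -2.99 for early meiotic genes, -1.52 for *NDT80* and middle genes, -0.99 for premeiotic replication, -1.71 for histones, -0.23 for initiation factors, -0.21 for repressors and decay factors, 0.30 for uORF mRNAs, 0.89 for amino acid synthesis, 0.99 for glycolysis, 0.079 for the glyoxylate and TCA cycle, 0.18 for the respiratory chain, 0.38 for heat shock, -0.54 for the secretory pathway, -0.97 for the proteasome, -0.14 for mating genes, 0.017 for G1 cyclins, 1.06 and 0.99 for small and large ribosomal subunits, -0.22 for mitochondrial ribosomes and 1.06 for untranslated RNAs. Untranslated RNAs bear on the fraction letters only. WT polysomal libraries had correlations of log2 CPM of 0.925 to 0.948 with GBy222 total libraries and 0.872 to 0.891 with GBy225 total libraries. For *ime4-cat* polysomal libraries these were 0.861 to 0.896 and 0.880 to 0.953, and the lowest with GBy225 was with total replicate 3. Which strain labels are right was not tested.

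Other settings turned further signs. *RME1* was 5.89e-04 with DESeq2 size factors, 0.0073 without scaling factors, 0.0022 with TMM without ribosomal protein genes and 0.0013 by limma-trend. With library weights, *IME1* was 0.063, *IME2* 0.053, *MUM2* 0.049 and *PGK1* -0.10, and *PGK1* was -0.0024 without a filter. Library weights moved the medians of early meiotic genes, *NDT80* and middle genes and the proteasome to 0.078, 0.011 and -0.031. Leaving out each library gave -0.12 to 0.11 for *RME1*, -0.50 to 0.23 for *IME1*, -0.66 to 0.26 for *IME2*, -0.27 to 0.089 for *MUM2*, -0.17 to 0.011 for *ACT1* and -0.17 to 0.19 for *PGK1*. The list medians that moved by more than the spread between libraries were early meiotic genes (-0.53 to 0.18), *NDT80* and middle genes (-0.39 to -9.31e-04), initiation factors (-0.14 to 0.012), elongation factors (-0.14 to 0.044), amino acid synthesis (-0.0070 to 0.16), glycolysis (-0.17 to 0.17), proteasome (-0.26 to -0.10), mitochondrial ribosomes (-0.17 to 0.038) and untranslated RNAs (-0.40 to 0.98). The causes were not tested. Depth also limits the comparison in the polysomal libraries of *ime4-cat* cells, with 586141 to 916345 counts. Its part beside the spread between libraries was not separated.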
